A study of Mus musculus with 24 samples.

Results

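The genes described here are 10 neuropeptide precursors of the dorsal hippocampus, Sst, Npy, Vip, Cck, Cort, Crh, Penk, Pdyn, Tac1 and Tac2. They were chosen by name, without a rule on measured values, though with earlier results of these data known. All 10 were found by their GENCODE M21 symbols among the 51826 gene identifiers of the count table. Each was counted in all 24 libraries, with 21 to 15302 reads per gene and library, and all 10 passed the filter on low counts in every comparison. RNA came from the dorsal hippocampus of C57BL/6J mice aged 2 to 4 months, either WT or CBP KIX/KIX. The study's paper states that both sexes were used, in control and experimental groups alike, without giving the sex behind each library. Libraries were not compared by sex here. CBP KIX/KIX mice carry, on both copies of Crebbp and in every cell of the body, amino acid substitutions in the KIX domain of the coactivator CBP, and the WT mice were littermates. RNA-Seq 1, made from total RNA after ribosomal depletion, held 3 libraries of WT homecage mice, 3 of WT mice trained in the Morris water maze (MWM) and 3 of CBP KIX/KIX mice trained in the same maze. RNA-Seq 2, made from polyA-selected RNA, held 3 libraries of WT homecage mice and 4 of WT mice after contextual fear conditioning (CFC), with 4 libraries from each of the same conditions in mutant mice. Tissue was taken an hour after the last training, and the homecage mice were not trained. Task, library type and sequencing site changed together between the experiments, and only RNA-Seq 2 held CBP KIX/KIX homecage mice.

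Neuropeptides are cut from larger precursor proteins, stored in dense core vesicles and released when a neuron fires strongly, after which they act on G protein-coupled receptors. In the hippocampus most of the precursors studied here mark classes of GABAergic interneurons. Sst, somatostatin, belongs to interneurons that inhibit the dendrites of pyramidal cells, and Npy, neuropeptide Y, is made by many of the same cells and by neurogliaform cells. Vip, vasoactive intestinal peptide, marks interneurons that inhibit other interneurons. Cck, cholecystokinin, is made by a class of basket cells and, at lower levels, by pyramidal cells. Cort, cortistatin, is a relative of somatostatin that acts on the same receptors, and Crh is the corticotropin-releasing hormone. Penk gives the enkephalins and Pdyn the dynorphins, both opioid peptides, and Pdyn is characteristic of dentate granule cells. Tac1 gives substance P and neurokinin A, and Tac2 gives neurokinin B. Several of these promoters, that of Sst first among them, are textbook targets of CREB, and CBP meets phosphorylated CREB through its KIX domain.

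Promoter sequence is shown for the members that hold the core of the cAMP response element, the site CREB binds, because the mutated domain is the one CREB uses. RefSeq promoters, 250 bases before to 50 bases after the transcription start on GRCm38.p6, matched 8 of the 10 members, in 9 entries. Penk and Crh had no entry, so their promoters were not searched and may or may not hold these motifs. The full palindrome TGACGTCA was searched as its own reverse complement, and its core TGACG on both strands, where it reads CGTCA on the other strand and also lies within the palindrome. The palindrome was found in 1 member, Sst, and in 1.79% of all 32851 promoters. The core was found in 5 members and in 20.8% of all promoters. TGANTCA, the AP-1 motif, was found in 0 of the 8 members and in 7.81% of all promoters. Each line below gives 60 bases around the first core, 5′ to 3′ on the strand of the gene, with motif matches in capitals.
Sst: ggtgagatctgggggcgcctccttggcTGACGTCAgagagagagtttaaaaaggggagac
Vip: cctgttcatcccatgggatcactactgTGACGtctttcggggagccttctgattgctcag
Cck: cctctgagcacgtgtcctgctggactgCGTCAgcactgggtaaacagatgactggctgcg
Tac1: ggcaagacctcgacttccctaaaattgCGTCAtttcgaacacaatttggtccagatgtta
Cort: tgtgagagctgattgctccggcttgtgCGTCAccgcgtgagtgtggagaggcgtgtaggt
The Sst stretch lies at chr16:23890860-23890919 on the minus strand and its palindrome starts at base -48 from the RefSeq start. The Vip stretch lies at chr10:5639112-5639171 on the plus strand with the core at -79, the Cck stretch at chr9:121495709-121495768 on the minus strand with the core at -47, and the Cort stretch at chr4:149126749-149126808 on the minus strand with the core at -18. The Tac1 stretch lies at chr6:7554837-7554896 on the plus strand with the core at -197, and a further one stands at -43. Npy, Pdyn and Tac2 held none of these letters in their windows. A match describes the letters only.

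Libraries held 15385836 to 65709282 counts. In RNA-Seq 2, replicates 1 and 2 held 30143949 to 46056290 and replicates 3 and 4 held 15385836 to 20568337. No libraries of a group were copies of each other, since for the 30 pairs of libraries within groups chi-square per gene was 2.74 at the lowest and 91.4 at the highest. The highest values, 91.4 and 80.6, both involved WT homecage replicate 3 of RNA-Seq 1, while replicates 1 and 2 of that group gave 16.2. Fos, a gene switched on by neuronal activity, checked the training labels. Its level, in CPM (counts scaled to a common library size with upper-quartile factors), was 3.09 to 4.65 in WT homecage and 22.2 to 30.2 in WT CFC mice of RNA-Seq 2, and 8.27 to 10.7 in WT homecage and 17.7 to 22.6 in WT MWM mice of RNA-Seq 1. CBP KIX/KIX homecage replicate 3 stood apart, with a Fos level of 105 CPM against 1.64 to 4.32 CPM in the other 3 libraries of its group, so results that rest on that group are given with and without single libraries. The mutation substitutes bases of Crebbp without removing the transcript, so the Crebbp level, 58.9 to 70.0 CPM over RNA-Seq 2, does not check the genotype labels. Choroid plexus markers, which come from tissue next to the hippocampus, ran from 185 to 5973 CPM summed over the 10 genes of the list in the libraries of RNA-Seq 2.

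Levels of different genes were compared per kilobase of exon, with the exons of all annotated transcripts of a gene merged. That length ran from 566 bases for Npy and 677 for Cort to 3402 for Vip, and the order below depends on it. In WT homecage mice of RNA-Seq 2, Sst was the most abundant member with 235 ± 21.2 CPM per kilobase (SD, n = 3), followed by Cck with 145 ± 5.71 and Npy with 61.9 ± 4.12. Penk stood at 14.9 ± 2.11, Cort at 6.46 ± 1.6, Vip at 4.53 ± 0.205, Pdyn at 4.19 ± 0.527, Tac2 at 3.64 ± 3.28, Tac1 at 2.66 ± 0.118 and Crh at 1.04 ± 0.251 CPM per kilobase. The libraries of neighbours in this order did not overlap among Sst, Cck, Npy, Penk and Cort, nor between Tac1 and Crh, whereas Cort, Vip, Pdyn, Tac2 and Tac1 overlapped each with the next. In WT homecage mice of RNA-Seq 1 the order began Sst, Cck, Npy, Penk, Cort, Pdyn and Vip, and Sst (201 ± 19.9 CPM per kilobase) and Cck (189 ± 29.5) overlapped there. Crh was the lowest member in both, at 0.564 ± 0.0174 CPM per kilobase in RNA-Seq 1, where its counts were 24, 26 and 43 reads.

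**Figure D1:**
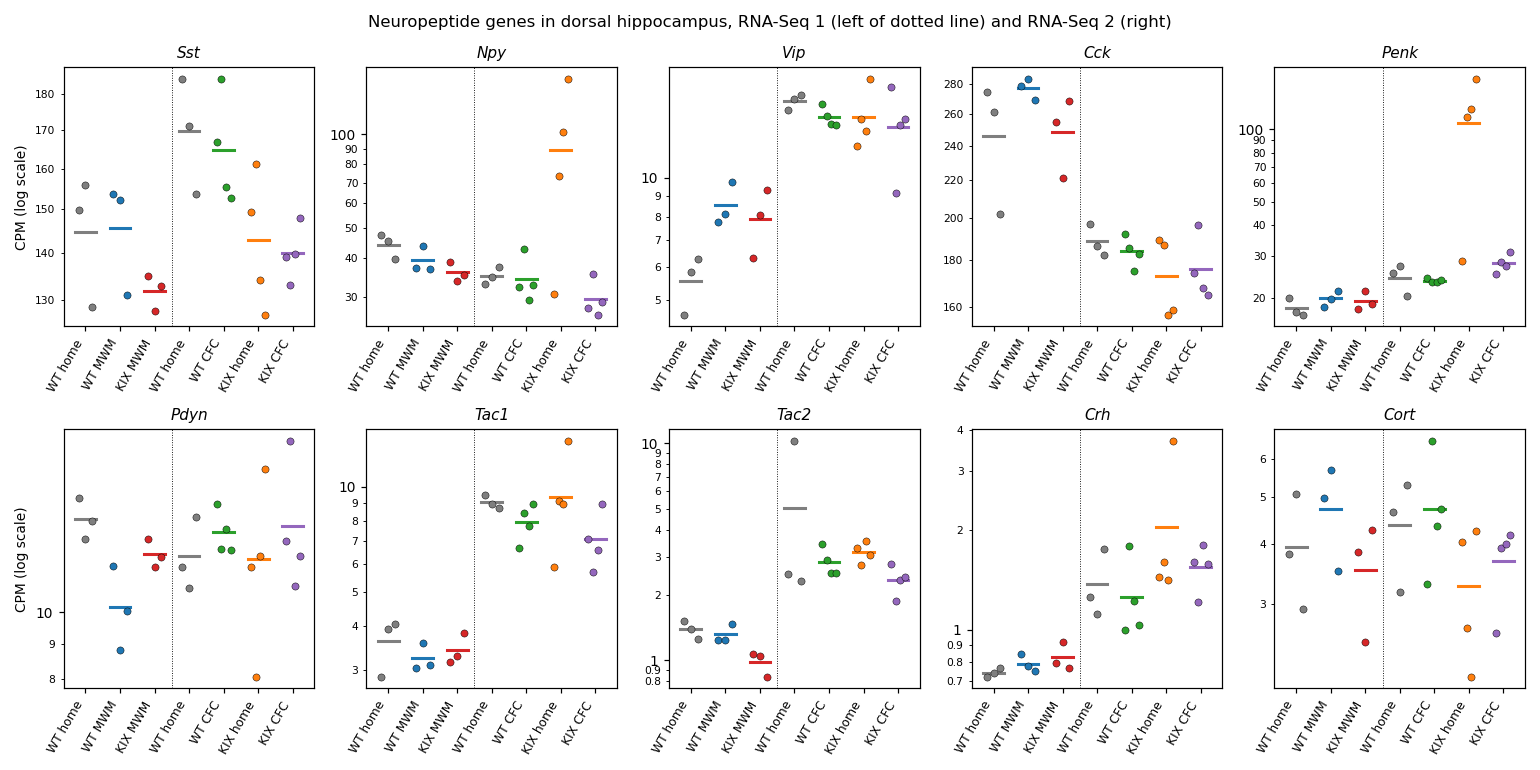
CPM of each neuropeptide gene (log axis, a scale of its own in each panel) in every library, as points by group, with bars at the group means. Npy and Penk are high in 3 of the 4 CBP KIX/KIX homecage libraries, Tac2 is high in 1 WT homecage library of RNA-Seq 2, and Vip, Tac1 and Crh sit lower in all libraries of RNA-Seq 1 than in any WT homecage library of RNA-Seq 2.

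The first question was whether trained CBP KIX/KIX mice differ from trained WT mice in these genes. With both experiments in 1 model, with the experiment and 4 RUVr factors (hidden sources of variation estimated from the residuals) as terms, 0 of the 10 members passed an adjusted p of 0.05 in edgeR's quasi-likelihood test with Benjamini-Hochberg adjustment over 21489 genes, where 2.41% of all genes passed. At an unadjusted p under 0.05 there were 6 members, against 18.7% of all genes, and DESeq2 called 2, Sst and Cck. The median log2 fold change (CBP KIX/KIX over WT) was -0.11 over the members and -0.01 over all genes, and 7 of the 10 values were negative. The members nearest to the threshold were Cck and Sst. Among the alternative settings of the edgeR fit and DESeq2, their adjusted p ran from 0.00665 to 0.522 for Cck and from 5.22e-04 to 0.331 for Sst. The lowest values came with the replicate number as a block together with RUVr factors, where Npy, Tac2 and Cort also passed. The block without factors called 0 members, and replicate numbers did not pair the genotypes by the rule used.

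Sst (chr16:23889573-23890958, minus strand) was counted at 139, 133, 140 and 148 CPM in CBP KIX/KIX CFC mice and at 167, 184, 155 and 153 CPM in WT CFC mice. Every CBP KIX/KIX library thus lay below every WT library, which held for 2.34% of all genes in either direction. After MWM the Sst levels were 135, 128 and 133 CPM in CBP KIX/KIX mice against 154, 152 and 131 CPM in WT mice, and here the groups overlapped by 1 WT library. In the homecage they were 149, 161, 134 and 127 CPM in CBP KIX/KIX against 184, 171 and 154 CPM in WT mice, again overlapping. The log2 fold change of Sst was -0.19 (SE 0.05, adjusted p = 0.0520) in the model of both experiments, -0.14 (SE 0.10, adjusted p = 0.808) after MWM, -0.23 (SE 0.08, adjusted p = 1.00) after CFC and -0.25 (SE 0.10, adjusted p = 0.783) in the homecage. All 3 contexts gave a lower level in CBP KIX/KIX mice, in none of them past the threshold. Of the 27 interneuron markers, 12 had positive and 15 negative values in the model of both experiments (median log2 fold change -0.04), and 1 passed, which is 3.7% of the list beside 2.41% of all genes. It was Lhx6, a transcription factor of the interneurons that make Sst, named here after its values were seen, at -0.22 (SE 0.05, adjusted p = 0.0316), or an adjusted p of 0.248 without the RUVr factors. In tissue RNA, fewer cells of a type and less RNA per cell cannot be told apart.

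Cck (chr9:121489824-121495694, minus strand) measured 255, 221 and 269 CPM in CBP KIX/KIX MWM mice against 279, 284 and 269 CPM in WT MWM mice. The 3 CBP KIX/KIX libraries lay below the 3 WT libraries, though by less than 1 CPM at the nearest points, and such a separation was found in 17.2% of all genes after MWM. After CFC the levels were 175, 197, 168 and 165 CPM in CBP KIX/KIX and 192, 185, 175 and 183 CPM in WT mice, and the groups overlapped. The log2 fold change was -0.10 (SE 0.03, adjusted p = 0.0508) in the model of both experiments and -0.06 (SE 0.03, adjusted p = 0.379) after normalization for GC content.

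Among the other interneuron peptides, Cort (chr4:149125034-149126763, minus strand) gave log2 fold changes of -0.39 (SE 0.24) after MWM, -0.41 (SE 0.24) after CFC and -0.37 (SE 0.26) in the homecage, with -0.42 (SE 0.14, adjusted p = 0.123) in the model of both experiments. With 1 library left out these ran from -0.57 to -0.22 after MWM, from -0.57 to -0.17 after CFC and from -0.57 to -0.25 in the homecage. Its libraries overlapped in each pair of groups, for example at 2.62 to 4.17 CPM in CBP KIX/KIX CFC against 3.30 to 6.52 CPM in WT CFC mice. Npy and Vip gave log2 fold changes of -0.17 (SE 0.06, adjusted p = 0.158) and -0.11 (SE 0.05, adjusted p = 0.254) in trained mice. The value of Vip was -0.01 without CBP KIX/KIX CFC replicate 2, its lowest library of RNA-Seq 2 at 9.17 CPM. Crh stood at 0.16 (SE 0.15, adjusted p = 0.627).

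Of the opioid and tachykinin precursors, Tac2 (chr10:127724478-127731768, plus strand) measured 1.07, 1.04 and 0.840 CPM in CBP KIX/KIX MWM mice and 1.24, 1.24 and 1.47 CPM in WT MWM mice. Those ranges did not overlap, which held in either direction for 17.2% of all genes after MWM. The levels rest on 35 reads or more per library, and the log2 fold change was -0.43 (SE 0.22, adjusted p = 0.808). It was -0.34 (SE 0.11, adjusted p = 0.113) in the model of both experiments. Pdyn gave 0.14 (SE 0.08, adjusted p = 0.331), Penk 0.12 (SE 0.06, adjusted p = 0.322) and Tac1 -0.07 (SE 0.09, adjusted p = 0.726). Penk after CFC was 25.2, 28.3, 27.1 and 31.1 CPM in CBP KIX/KIX and 24.2, 23.2, 23.3 and 23.8 CPM in WT mice. The groups did not overlap, which held in either direction for 2.34% of all genes after CFC. The log2 fold change of Penk there was 0.24 (SE 0.33, adjusted p = 1.00) in a fit whose spread includes the CBP KIX/KIX homecage libraries described next. Tested in each experiment alone, 0 of 10 members passed after MWM, where 0% of all genes passed, and 0 of 10 after CFC, where 0.0106% did. At an unadjusted p under 0.05 it was 1 member in each, against 5.89% and 2.64% of all genes, and DESeq2 called 0 in both. The genotype difference itself was not found to differ between experiments for any member (0 of 10, 0% of all genes, 1 member at an unadjusted p under 0.05 against 6.41% of all genes, 0 by DESeq2).

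**Figure D2:**
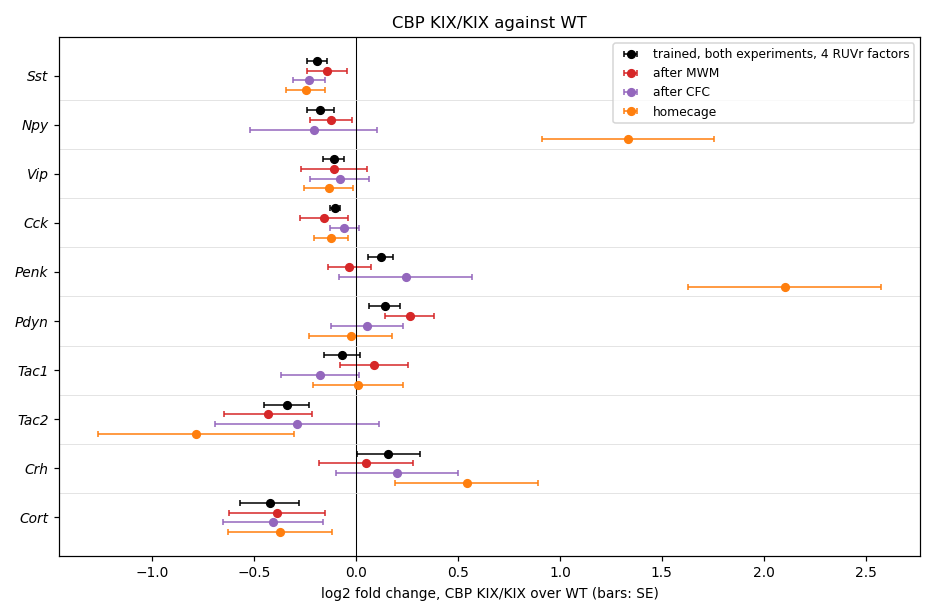
Log2 fold change of CBP KIX/KIX over WT mice for each member (points) with its standard error (bars), in the model of both experiments and in each context. Sst, Cck, Cort, Vip and Tac2 lie left of 0 in all 4. With 1 library left out, Vip after MWM (0.024) and after CFC (0.071) and Tac2 in the homecage (0.37) turn positive. The homecage values of Npy (1.34) and Penk (2.10) lie far to the right with wide error.

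The second question was whether the genotypes differ without training, and here Penk and Npy had the largest fold changes of the 10 members. Penk (chr4:4133531-4138819, minus strand) was at 28.5, 113, 121 and 161 CPM in CBP KIX/KIX homecage replicates 1 to 4, on 1165, 5757, 2229 and 2836 reads. WT homecage mice were at 25.4, 27.1 and 20.5 CPM, and the 8 CFC libraries of both genotypes were between 23.2 and 31.1 CPM. Replicates 2 to 4 were thus 4.63, 4.99 and 6.62 times the WT homecage mean and replicate 1 was 1.17 times it. Npy (chr6:49822710-49829507, plus strand) followed the same order of libraries, with 30.5, 73.7, 102 and 151 CPM in CBP KIX/KIX homecage mice, 32.9, 34.7 and 37.5 CPM in WT homecage mice and 26.3 to 42.7 CPM in the CFC libraries. Replicates 2 to 4 were 2.10, 2.91 and 4.30 times the WT homecage mean and replicate 1 was 0.872 times it. The Penk libraries of CBP KIX/KIX mice all lay above those of WT mice, which held for 1 of 10 members and, in either direction, for 6.46% of all genes, and those of Npy overlapped because of replicate 1.

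The homecage test gave Penk a log2 fold change of 2.10 (SE 0.47, adjusted p = 0.492) and Npy one of 1.34 (SE 0.42, adjusted p = 0.777), so neither passed. None of the 10 members did, 0.0107% of the 18682 genes tested did, 3 members against 6.17% of all genes had an unadjusted p under 0.05, and DESeq2 called 0 members. The result turned on 1 library. Without CBP KIX/KIX homecage replicate 1, Penk gave 2.42 (SE 0.15, adjusted p = 0.00212) and Npy 1.62 (SE 0.22, adjusted p = 0.0531), in a fit where 9 of 17790 genes passed. Without replicate 3, the library with high Fos, Penk gave 2.03 (SE 0.52, adjusted p = 0.993) and Npy 1.26 (SE 0.46, adjusted p = 0.993). The adjusted p was 0.780 for both without replicate 2, and 0.670 for Penk and 0.989 for Npy without replicate 4. With all 4 groups of RNA-Seq 2 in the fit, the adjusted p was 0.0796 for Penk and 0.300 for Npy. Within the deeper libraries (replicates 1 and 2) the mean Penk level was 70.6 CPM in CBP KIX/KIX (n = 2) and 26.3 CPM in WT homecage mice (n = 2), and within the shallower ones (replicates 3 and 4) it was 141 CPM (n = 2) against the 20.5 CPM of a single WT library.

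The other members did not share this pattern in full. Tac1 (chr6:7554879-7565834, plus strand) was at 5.90, 9.12, 8.93 and 13.5 CPM in CBP KIX/KIX homecage replicates 1 to 4, the same lowest and highest library, but its group mean of 9.36 ± 3.13 CPM stood beside 9.06 ± 0.400 CPM in WT mice (log2 fold change 0.01, SE 0.22, adjusted p = 0.997). Crh was at 1.44, 1.6, 1.42 and 3.69 CPM, with replicate 4 highest, against 1.11 to 1.75 CPM in WT mice (log2 fold change 0.54, SE 0.35, adjusted p = 0.834). Pdyn had its highest homecage library, 16.2 CPM, also in replicate 4, and its lowest, 8.06 CPM, in replicate 2. Sst and Cck moved the other way, lowest in replicates 3 and 4. Over the 4 libraries, then, replicate 4 was highest for Npy, Penk, Vip, Pdyn, Tac1, Crh and Cort and lowest for Sst.

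Markers of other tissue and cell types were read in the same libraries. Of the 9 striatum markers, 1 was higher in CBP KIX/KIX homecage replicates 2 to 4 than in all 11 other libraries of RNA-Seq 2 outside that group: Drd1, a dopamine receptor that dentate granule cells also express, with 12.5 to 18.7 CPM against 3.71 to 6.52 CPM. The defining markers of striatal enkephalin neurons, Drd2 (3.23 to 5.51 CPM against 3.04 to 4.53 CPM) and Adora2a (1.39 to 2.44 CPM against 1.05 to 1.82 CPM), overlapped the other libraries, and Gpr6 was at 0.218 to 0.908 CPM against 0.582 to 1.71 CPM. The summed striatal level was 56.5 to 111 CPM in CBP KIX/KIX homecage and 62.1 to 73.9 CPM in WT homecage mice. Among the interneuron markers 0 of 27 were higher in replicates 2 to 4 and 1, Lamp5, was lower (24.8 to 29.7 against 32.2 to 38.7 CPM), and their summed level was 1446 to 1732 CPM against 1452 to 1573 CPM in WT homecage mice. Of the 18 pyramidal and granule cell markers, 1 was higher, Slc17a7 (1406 to 1652 against 1156 to 1398 CPM), and 1 was lower, Lct (17.3 to 38.9 against 41.0 to 64.8 CPM). Of the 8 neocortex markers with a level, 0 were higher and 1, Tbr1, was lower (23.2 to 32.5 against 32.8 to 53.1 CPM). Their summed level was 113 to 139 CPM in the CBP KIX/KIX homecage libraries, all below the 160 to 179 CPM of WT homecage mice, while CFC libraries of both genotypes ran from 126 to 179 CPM. The 8 thalamus and habenula markers with a level likewise summed to 73.4 to 101 CPM, all below the 109 to 127 CPM of WT homecage mice. Choroid plexus markers, summed, were 305 to 3761 CPM in CBP KIX/KIX and 185 to 2441 CPM in WT homecage mice, and 0 of 10 separated. Over all 22408 genes with a level, 2.85% were higher and 2.61% lower in replicates 2 to 4 than in the 11 other libraries, and the part of any of these in the Penk and Npy levels was not tested. An antisense gene, A830012C17Rik, shares 233 exon bases with Penk, which is 14.3% of the exon length of Penk. It held 0 to 10 reads per library, where Penk held 352 to 5757. Since the strand setting of the counting is not given in the sources used here, reads over the shared bases cannot be told apart.

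**Figure D3:**
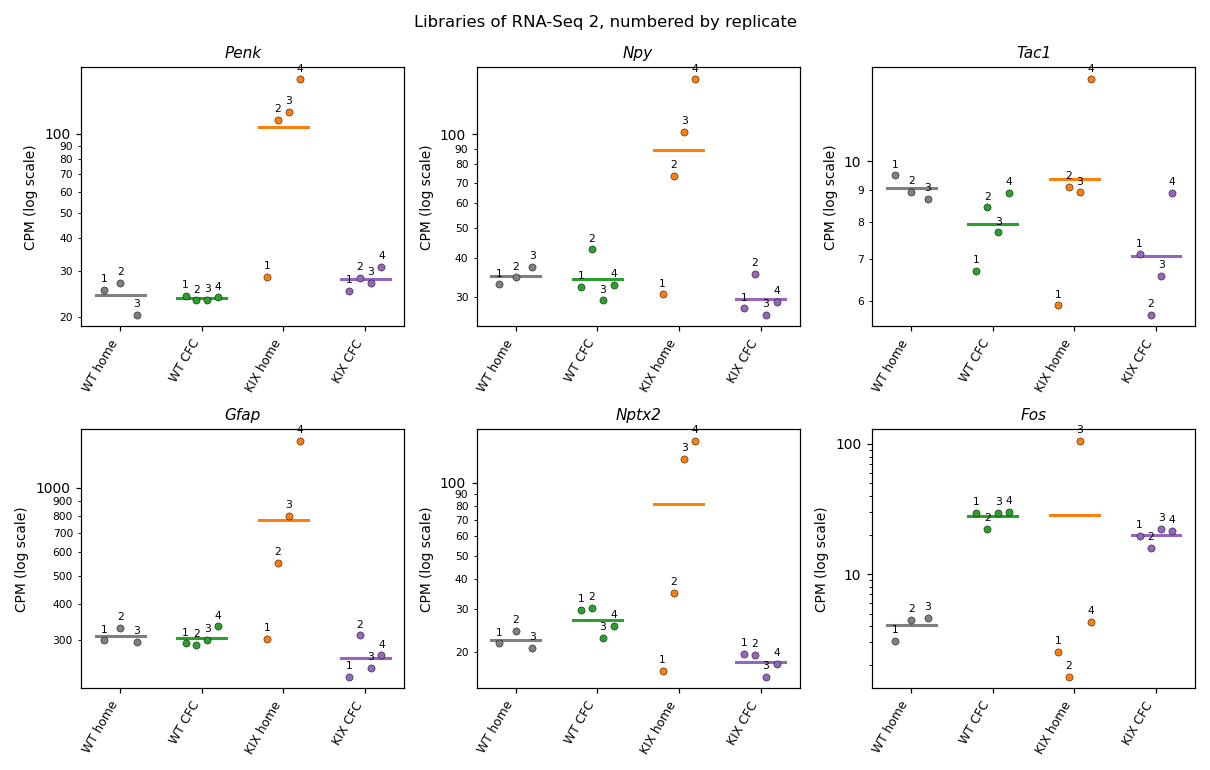
CPM (log axis) in the 15 libraries of RNA-Seq 2, numbered by replicate, with bars at group means, for Penk, Npy and Tac1, for Gfap and Nptx2, the genes most like Npy across libraries, and for Fos. In CBP KIX/KIX homecage mice replicate 1 is lowest and replicate 4 highest for all but Fos, which is high in replicate 3 alone at 105 CPM.

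The genes whose variation was most like that of each member were found by the correlation of log2 CPM after subtracting the mean of each of the 7 groups, over 24 libraries and 15140 genes. For Npy these were Gfap, the intermediate filament of astrocytes (r = 0.90), and Nptx2, a secreted synaptic pentraxin (r = 0.90). Without the 4 CBP KIX/KIX homecage libraries the correlations were 0.18 and 0.40, so they rested on those 4. Gfap stood at 304, 554, 800 and 1442 CPM and Nptx2 at 16.7, 35.2, 125 and 149 CPM in replicates 1 to 4. WT homecage mice had 297 to 331 CPM of Gfap and 20.8 to 24.5 CPM of Nptx2, so that 3 of 4 CBP KIX/KIX libraries exceeded all WT libraries for both genes. For Penk the most alike were Pappa, a protease of insulin-like growth factor binding proteins (r = 0.92, and 0.28 without those 4), and Lipg, an endothelial lipase (r = 0.88, and 0.46). Npy and Penk correlated with each other at r = 0.88 over 24 libraries and -0.05 over the other 20.

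The likeness of the remaining members depended less on that group. Cck varied with Calm3, a calmodulin (r = 0.96 over 24 and 0.96 over 20 libraries), and Adck5 (0.95 and 0.94). Sst varied with Npr2, a natriuretic peptide receptor (0.85 and 0.81), and the phospholipase Plcd3 (0.83 and 0.81). Vip varied with the RNA-binding protein Elavl4 (0.88 and 0.94) and with Fnbp1l (0.82 and 0.87), and Tac1 with Ttc39b (0.88 and 0.93) and Sorbs2 (0.84 and 0.68). Pdyn went with Cap2 (0.85 and 0.77) and Ptpn3 (0.83 and 0.70), Crh with Samd12 (0.79 and 0.49) and Sh3d21 (0.79 and 0.83), and Cort with Dnajc24 (0.77 and 0.84) and Chac1 (0.73 and 0.68). Libraries of a group share their condition but differ in depth, dissection and RNA composition, all of which enter these values.

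**Figure D4:**
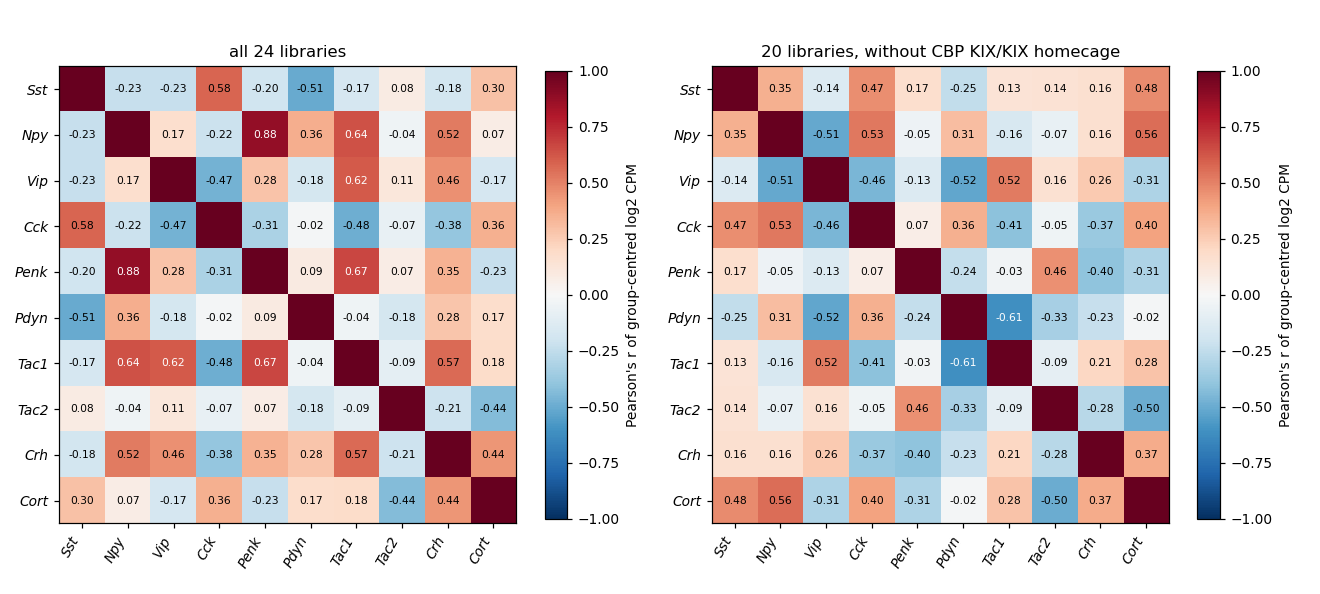
Pearson correlations among the 10 members of log2 CPM centred within groups, over all 24 libraries (left) and over the 20 outside CBP KIX/KIX homecage mice (right). The red Npy and Penk cell, 0.88 on the left, is near white on the right at -0.05, while Vip with Tac1 keeps 0.62 and 0.52 and Sst with Cck 0.58 and 0.47.

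The third question was how training relates to these genes. In WT mice, with both experiments in 1 model and 3 RUVr factors, 0 of the 10 members passed among 22038 genes, of which 0.821% did. At an unadjusted p under 0.05 there were 2 members, against 18.3% of all genes, and DESeq2 called 0. With the replicate number as a block, 0 members passed without RUVr factors, among 14 genes called in place of 181, and 1 passed with them, Vip at 0.28 (SE 0.05, adjusted p = 0.0420), among 453 genes. The median log2 fold change (trained over homecage) was 0.01 over members and -0.03 over all genes. In the same fit 12 of 12 activity-regulated genes had positive values (median 0.85) and 11 passed. Among them were Junb at 0.91 (SE 0.06, adjusted p = 1.12e-05), Egr1 at 0.97 (SE 0.07, adjusted p = 1.12e-05), Arc at 1.28 (SE 0.09, adjusted p = 1.12e-05), Nr4a1 at 1.08 (SE 0.10, adjusted p = 1.29e-04), Egr2 at 2.52 (SE 0.24, adjusted p = 1.69e-04) and Fos at 1.95 (SE 0.20, adjusted p = 4.46e-04). All 10 choroid plexus markers had positive values (median 1.48) and 1 of them, the water channel Aqp1, passed at 1.77 (SE 0.38, adjusted p = 0.0498). Without RUVr factors Aqp1 stood at 1.25 (SE 0.78, adjusted p = 0.674), and with the replicate block in place of the factors its adjusted p was 0.119. Of the activity-regulated genes 6 of 12 passed without factors, the 6 named above, and 7 of 12 with the block.

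Vip (chr10:5639218-5647617, plus strand) was the member with the largest positive value after MWM. It measured 7.76, 8.14 and 9.77 CPM in WT MWM mice and 4.59, 5.84 and 6.28 CPM in WT homecage mice of RNA-Seq 1, without overlap. The log2 fold change was 0.60 (SE 0.17, adjusted p = 0.270), or 0.31 (SE 0.08, adjusted p = 0.299) after GC content normalization. After CFC, Vip stood at 15.2, 14.2, 13.5 and 13.5 CPM in WT mice against 14.6, 15.6 and 16.0 CPM in the homecage, a log2 fold change of -0.13 (SE 0.15, adjusted p = 1.00). The difference between the responses was 0.74 (SE 0.16, adjusted p = 0.307) in the edgeR fit and 0.79 (SE 0.17, adjusted p = 0.00937) in DESeq2. It was 0.84 (SE 0.16, adjusted p = 0.0243) without WT homecage replicate 3 of RNA-Seq 1, the highest homecage library, whose removal also gave an adjusted p of 0.0307 for Vip after MWM. Without that library 2433 of 22563 genes passed after MWM, in place of 3 of 22276.

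Pdyn (chr2:129686565-129699844, minus strand) went the other way after MWM, with 11.7, 8.80 and 10.1 CPM in WT MWM mice and 14.7, 12.8 and 13.6 CPM in the homecage, again without overlap. Its log2 fold change was -0.43 (SE 0.12, adjusted p = 0.270), and -0.44 (SE 0.13, adjusted p = 0.0452) without WT homecage replicate 3. After CFC it was 0.12 (SE 0.19, adjusted p = 1.00), and the difference between experiments was -0.56 (SE 0.16, adjusted p = 0.527). Vip and Pdyn were thus 2 of 10 members whose groups were apart after MWM, beside 13.5% of all genes, while after CFC the groups were apart for 0 of 10 members in WT mice (4.98% of all genes) and 0 of 10 in CBP KIX/KIX mice (4.45% of all genes). By the test, 0 of 10 members passed after MWM, where 0.0135% of all genes did, 2 members against 11.4% of all genes had an unadjusted p under 0.05, and DESeq2 called 1, Vip. With the replicate block 1 gene in place of 3 was called after MWM, and 0 members. After CFC 0 of 10 passed and 0% of all genes did, with 1 member (Tac2) against 2.73% of all genes at an unadjusted p under 0.05 and 0 by DESeq2. For the difference between the responses it was 0 of 10, beside 0.0136% of all genes, with 2 members (Vip and Pdyn) against 7.4% of all genes at an unadjusted p under 0.05 and 1, Vip, by DESeq2. The Fos rise was smaller in MWM than in CFC mice on the log2 scale, with a difference of -1.66 (SE 0.22, adjusted p = 0.0289).

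Sst did not move with training in any group beyond its spread, with log2 fold changes of 0.01 (SE 0.10) after MWM, -0.05 (SE 0.09) after CFC in WT and -0.03 (SE 0.08) after CFC in CBP KIX/KIX mice. Cck gave 0.17 (SE 0.12), -0.04 (SE 0.08) and 0.03 (SE 0.07) in the same comparisons, and Cort 0.29 (SE 0.24), 0.18 (SE 0.26) and 0.14 (SE 0.26). Tac1 gave -0.18 (SE 0.17), -0.20 (SE 0.20) and -0.39 (SE 0.19).

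Tac2 in WT mice rested on 1 library. WT homecage replicate 2 of RNA-Seq 2 held 505 reads of it, 10.2 CPM, where the other 2 held 2.49 and 2.33 CPM and the CFC libraries 1.86 to 3.42 CPM. The log2 fold change after CFC was -0.91 (SE 0.38, adjusted p = 1.00) with that library and 0.24 (SE 0.19) without it. The same library held 8.07 CPM of Gpr151, a receptor of habenula neurons, against 0.542 to 2.04 CPM in all other libraries of RNA-Seq 2. It also held 1.64 CPM of Irx1 against 0.459 and 0.524 CPM, and 6.69 CPM of Tcf7l2 against 3.58 and 3.72 CPM, in the other WT homecage mice. Gpr151 was also, with Syt6 (r = 0.82), one of the genes most like Tac2 over the 24 libraries (r = 0.78). The summed level of the 8 thalamus and habenula markers with a level was 109 to 127 CPM in WT homecage mice of RNA-Seq 2, and their part in the Tac2 level was not tested.

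In CBP KIX/KIX mice, the comparison of CFC with homecage rests on the same homecage libraries as above. Penk gave a log2 fold change of -1.91 (SE 0.33, adjusted p = 0.0691) and Npy one of -1.57 (SE 0.31, adjusted p = 0.0879), with 4 of 4 CFC libraries below 3 of 4 homecage libraries for both. In the edgeR fit 0 of 10 members passed, as did 0% of all genes, and 2 members against 13% of all genes had an unadjusted p under 0.05. With the replicate block 3 genes in place of 0 were called, and 0 members, with Penk at -1.81 (SE 0.32, adjusted p = 0.0697) and Npy at -1.46 (SE 0.30, adjusted p = 0.0856). DESeq2 called both, at an adjusted p of 4.50e-04 for Penk and 0.00368 for Npy, and so did edgeR without CBP KIX/KIX homecage replicate 1 (adjusted p = 1.34e-07 and 3.41e-04), where 976 of 18332 genes passed. Without replicate 3 the adjusted p was 0.0734 for Penk and 0.144 for Npy. It was 0.146 for both without replicate 2, and 0.141 for Penk and 0.198 for Npy without replicate 4. In WT mice the same comparison gave -0.06 (SE 0.35) for Penk and -0.03 (SE 0.33) for Npy. The test of the difference between the genotypes' responses gave -1.86 (SE 0.48, adjusted p = 0.944) for Penk and -1.54 (SE 0.46, adjusted p = 0.944) for Npy. No member passed there (0 of 10, 0% of all genes, 2 members against 4.92% of all genes at an unadjusted p under 0.05, 0 by DESeq2). Without replicate 1, the library of its group with Penk and Npy near the WT level, both passed, at -2.18 (SE 0.16, adjusted p = 2.65e-05) and -1.84 (SE 0.27, adjusted p = 0.0233), among 54 of 18332 genes. The adjusted p was 0.809 for both genes without replicate 2, and 0.999 for both without replicate 3 and without replicate 4. These comparisons share the homecage libraries with the test of genotype in the homecage, so they are not independent of it.

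**Figure D5:**
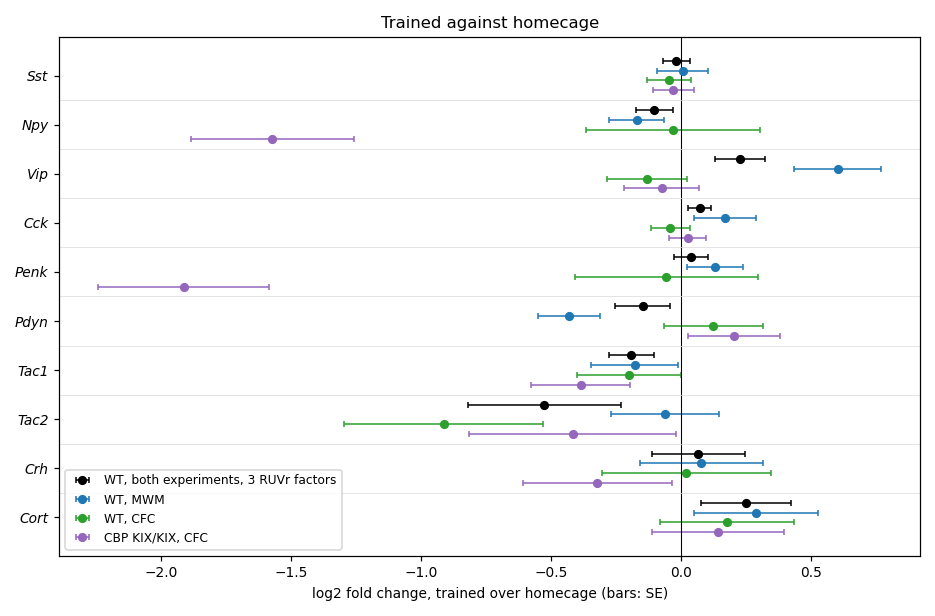
Log2 fold change of trained over homecage mice for each member (points) with its standard error (bars), for WT mice in the model of both experiments, after MWM and after CFC, and for CBP KIX/KIX mice after CFC. Vip (0.60) and Pdyn (-0.43) stand out after MWM in WT mice, and Npy (-1.57) and Penk (-1.91) after CFC in CBP KIX/KIX mice.

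The members' levels also differed between the experiments. In WT homecage mice 8 of 10 members differed between RNA-Seq 1 and RNA-Seq 2, as did 72.7% of all genes, so the count sits near the background. The same 8 had an unadjusted p under 0.05 (74.5% of all genes), and the ranges were apart for 7 members (71.9% of all genes). Vip (log2 fold change, RNA-Seq 1 over RNA-Seq 2, -1.46, SE 0.12, adjusted p = 3.93e-08), Tac1 (-1.31, SE 0.14, adjusted p = 7.38e-07) and Tac2 (-1.97, SE 0.44, adjusted p = 7.59e-04) were the lowest in RNA-Seq 1, and Tac2 was at -0.82 without WT homecage replicate 2 of RNA-Seq 2. After GC content normalization Vip was at -0.49 and Tac1 at -0.47, both still past the threshold. Crh (-0.79) and Penk (-0.43) were also lower there, Crh with an adjusted p of 0.257 under the replicate block. Sst (-0.23, adjusted p = 0.0480) and Npy (0.34, adjusted p = 0.0209) passed narrowly, with adjusted p of 0.0921 for Sst in DESeq2 and 0.734 for Npy after GC content normalization. Across the alternative settings Sst ran from -0.72 to -0.14, with adjusted p from 4.88e-06 to 0.301. Cck was higher at 0.38 (SE 0.09, adjusted p = 0.00151), but at -0.45 (SE 0.04, adjusted p = 1.47e-06) after GC content normalization. Ribosomal depletion and polyA selection keep different RNA, and library type cannot be told apart from site and run.

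Genes around the peptides were read from lists of their receptors, their processing and their cells. In trained mice, 4 of 28 peptide processing and dense core vesicle genes had lower levels in the mutant and 0 had higher levels (median -0.01, beside -0.01 for all genes), which is 14.3% of the list beside 2.41% of all genes. They were Pcsk1, the convertase that cuts many precursors (-0.31, SE 0.04, adjusted p = 0.00280), Ptprn (-0.18, SE 0.03, adjusted p = 0.00448) and Ptprn2 (-0.12, SE 0.03, adjusted p = 0.0358), both proteins of the vesicle membrane, and Crhbp, the binding protein of Crh (-0.35, SE 0.07, adjusted p = 0.0152). Of 19 receptors of the members that were tested, 1 (5.26%) was lower, the somatostatin receptor Sstr3 (-0.16, SE 0.04, adjusted p = 0.0438). Ptprn2, Crhbp and Sstr3 are named after their values were seen. Without RUVr factors none of these 5 passed, with adjusted p between 0.126 and 0.412.

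Of 12 activity-regulated genes 7 (58.3%, beside the same 2.41% of all genes) were lower (median -0.28), among them Junb (-0.32, SE 0.04, adjusted p = 7.97e-04) and Fos (-0.51, SE 0.06, adjusted p = 8.52e-04), at an adjusted p of 0.0620 each without factors. Of 18 pyramidal and granule cell markers, 2 were higher and 3 lower (27.8% in all), with Calb1, the calbindin of granule and pyramidal cells, at 0.35 (SE 0.06, adjusted p = 0.00615) and Mpped1, a marker of CA1, at -0.28 (SE 0.04, adjusted p = 0.00133). Of 32 other neuropeptide precursors that were tested, 0 passed in edgeR (5 at an unadjusted p under 0.05), and 0 of 9 CREB and CREB coactivator genes did (1 at an unadjusted p under 0.05). Between genotypes in the homecage, 0 genes of the precursor, receptor and processing lists passed in edgeR, with 5 of 27, 2 of 18 and 3 of 28 at an unadjusted p under 0.05, beside 0.0107% and 6.17% of all genes.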

How the data were processed

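The authors aligned reads with STAR to mm10 (GRCm38, per the labels), counted them per gene with featureCounts 1.4.4, and deposited raw counts, not normalized, for 24 libraries. The annotation release and strand setting are not given in the sources used here. Identifiers were matched to GENCODE M21 (51633 of 51826). Counts were filtered with filterByExpr, scaled by the upper quartile and tested with edgeR 4.0.16 (quasi-likelihood, Benjamini-Hochberg over all genes tested, called at an adjusted p under 0.05) in R 4.3.3, with DESeq2 as an alternative. SE is the log2 fold change divided by the square root of F. RUVr factors (4 for genotype after learning, 3 for WT learning) came from deviance residuals in a separate implementation. The study's GC content adjustment was an alternative here, in 10 bins. A prior count of 2 was used for log2 CPM. Members and gene lists were chosen with earlier results of these data known. Named genes were the 10 members, list genes past the threshold (at most 6 of lowest p per comparison, others said to be named after their values were seen), the 2 genes most like each member, Crebbp, Fos and markers moving with a member. The labels do not tie libraries to mice, so p-values measure the spread between libraries. A floor of 3 counts was 0.0537 to 0.175 CPM, below every level of a member, and covers counting error only. Replicate numbers were checked by the correlation of the deviations of same-numbered libraries from their group means. They paired trained with homecage libraries within a genotype (0.10 to 0.18 for WT in RNA-Seq 1, 0.19 to 0.38 for WT and 0.15 to 0.25 for CBP KIX/KIX in RNA-Seq 2) and not the 6 other pairs of groups. The labels do not say what a number shares. Only the fits of genotype after learning and of genotype in the homecage were tried on simulated counts. Those counts held no hidden factors and no outlying library, so how the fits handle these was not tested.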

Additional observations from a re-analysis of the deposited data

Results flagged for a closer look

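In the 30 sets of 4 libraries (10 members in 3 groups), 2 libraries lay far from the other 3 of their group by Dixon's test, where chance gives about 1 in 20. Crh in CBP KIX/KIX homecage replicate 4 was at 3.69 CPM (65 reads) with the others between 1.42 and 1.6 CPM. It was the same library that was highest for Npy and Penk, and without it the log2 fold change of Crh in the homecage was the lowest of those with a library left out, 0.22 against 0.54. Cort in CBP KIX/KIX CFC replicate 1 was at 2.62 CPM (110 reads) with the others between 3.92 and 4.17 CPM, and without it the log2 fold change between genotypes after CFC was -0.26 against -0.41.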

How the results depend on the processing

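Of the alternative values of single members, 2272 stayed on their side of the threshold, 31 newly passed it and 19 no longer did. A further 24 that did not pass moved by more than a standard error, and 12 changed sign. Values that passed both times count among the 2272 whatever their shift. Between experiments Vip thus went from -1.46 to as near 0 as -0.49, Tac1 from -1.31 to -0.47 and Tac2 from -1.97 to -0.82. For genotype after learning, 2 members were called with DESeq2 (Sst, Cck), 1 with a filter of 1 CPM (Cck), 5 with a replicate block and RUVr factors (Sst, Npy, Cck, Tac2, Cort) and 0 to 2 with a library left out. For WT learning 1 was called with the replicate block and RUVr factors (Vip). DESeq2 called 1 in WT MWM against homecage (Vip), 2 in KIX CFC against homecage (Npy, Penk) and 1 in learning by experiment (Vip), and with no filter on low counts 1 was called in KIX CFC against homecage (Penk). With a library left out the calls ran from 0 to 1 for genotype in homecage (Penk) and learning by experiment (Vip), and from 0 to 2 for WT MWM against homecage (Vip, Pdyn), KIX CFC against homecage and genotype by training (Npy, Penk). Between experiments 8 were called.

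With a library left out, the log2 fold change of Tac2 ran from -0.74 to 0.070 (WT learning), -1.16 to 0.37 (homecage), -1.27 to 0.24 (WT CFC), -0.66 to 0.86 (genotype by training) and -0.30 to 1.20 (learning by experiment), each with the sign of its own value reversed without WT homecage replicate 2. Cck in WT learning ran from -0.0019 to 0.10, Crh in KIX CFC from -0.47 to 0.0013, Vip in KIX CFC from -0.22 to 0.078 and after CFC from -0.23 to 0.071, and Pdyn after CFC from -0.13 to 0.14. GC content normalization reversed Cck in genotype by experiment (0.052) and between experiments (-0.45). The cause of these was not tested.

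Replicate numbers did not pair the genotypes by the rule used, correlating at -0.16 to -0.01 after MWM, -0.09 to 0.38 after CFC and 0.07 to 0.24 in the homecage. In RNA-Seq 2 same-numbered libraries still correlated at 0.17 on average (over 0.1 in 16 of 21 pairs) and others at -0.06 (14 of 63). A replicate block without factors called 9 genes after learning in place of 517, 14 in WT learning in place of 181, and 0 members in both, and with RUVr factors 2402 and 453 genes. With block and factors the adjusted p after learning was 5.22e-04 for Sst, 0.00397 for Npy, 0.00665 for Cck, 0.00696 for Cort and 0.0491 for Tac2. In the homecage the block, in which CBP KIX/KIX replicate 4 has no partner and no weight, gave 1.61 for Penk (adjusted p = 0.565) and 0.81 for Npy (adjusted p = 0.632). Between experiments it ended the calls of Crh and Sst (adjusted p = 0.0842), leaving 6 members. It changed no other member's call. A term for depth, added after seeing the data, called 0 members in RNA-Seq 2. In RNA-Seq 1 against RNA-Seq 2 the median over all genes was 0.09, and 0.29 without the filter on low counts. Calls with RUVr factors depend on their number, since 5, 151 and 517 genes were called after learning with 0, 2 and 4 factors, and with 4 factors 214 without the filter and 51 after GC content normalization. DESeq2 called 520 genes in WT learning, 57 in the homecage in place of 2, 73 in WT MWM in place of 3 and 259 in KIX CFC in place of 0.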

Other observations

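Peptide genes outside the 10 also varied across the CBP KIX/KIX homecage libraries. Of the 27 other precursors tested in the homecage, 0 passed in edgeR (0.0107% of all genes did) and 5 had an unadjusted p under 0.05 (6.17% of all genes did): Grp, Gal, Nucb2, Adcyap1 and Cartpt, named here after their values were seen. Grp, gastrin-releasing peptide, was at 16.8, 33.0, 45.3 and 52.1 CPM in CBP KIX/KIX replicates 1 to 4, at 17.4 to 21.1 CPM in WT homecage mice and at 8.78 to 19.7 CPM in CBP KIX/KIX CFC mice. Gal, galanin, was at 0.220, 1.08, 2.07 and 3.92 CPM in those replicates and at 0.233 to 0.314 CPM in WT homecage mice. Its lowest levels rest on few reads. A floor of 3 counts was 0.0608 to 0.175 CPM in those WT libraries and 0.0735 CPM in CBP KIX/KIX replicate 1. Both followed the order of libraries seen for Npy and Penk. Nucb2, the precursor of nesfatin, was at 13.3 to 18.0 CPM against 11.8 to 13.6 CPM, and Adcyap1, the precursor of PACAP, at 5.24 to 9.14 CPM against 4.13 to 5.74 CPM. Cartpt was lower, with 0.653 to 1.35 CPM against 1.16 to 1.98 CPM, overlapping in 1 library of each group.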
